A study of Mus musculus with 36 samples.

Results

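The nuclear genes for subunits of mitochondrial complex I were examined in the anterior cingulate cortex (aCC) of Brd1+/- mice and their wild-type (WT) littermates. Members were taken by symbol, as the genes named Nduf followed by a, b, c, s, v or ab and a number, and 37 of the 52636 genes in the expression table met this rule. Of the 37, 7 encode core subunits and 30 accessory subunits. All 37 passed the filter on low values, since each was at 17.01 TPM or more in every library. Assembly factors and pseudogenes fell outside the rule.

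RNA from punches of the right aCC of 36 female mice was sequenced, with a library for each mouse. The 4 groups were WT mice given vehicle (WT vehicle, n = 8), Brd1+/- mice given vehicle (n = 9), WT mice given imipramine (WT IMN, n = 10) and Brd1+/- mice given imipramine (Brd1+/- IMN, n = 9). Mice were 8 to 11 weeks old, with C57BL/6NTac-Brd1 as the labelled strain, and the Brd1+/- animals were heterozygous for a targeted deletion within Brd1, whose protein is a scaffold of histone acetyltransferase complexes. Imipramine, a tricyclic antidepressant, was injected subcutaneously at 10 mg/kg. All groups shared the remaining handling: injections on consecutive days, tail suspension, then open field and swim tests on the day the brain was taken. The deletion is carried by every cell of the Brd1+/- animal, so the groups do not single out a cell type, and a bulk punch cannot tell fewer cells of a type apart from less RNA per cell.

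Complex I oxidises NADH, passes the electrons through flavin and iron-sulphur centres to ubiquinone, and pumps protons across the inner mitochondrial membrane. Its core subunits carry the chemistry and are encoded partly in the nucleus and partly in mitochondrial DNA, while the accessory subunits surround the core and stabilise it. The enzyme is put together from modules: the N module, where NADH is oxidised, the Q module, where ubiquinone is reduced, and the proton-pumping modules, named after the mitochondrially encoded subunits ND1, ND2, ND4 and ND5. Neurons depend on oxidative phosphorylation for most of their ATP, and transcripts of these genes are abundant in brain.

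The promoters of 33 of the 37 members were found in RefSeq (GRCm38.p6). They were searched, from 250 bases before the start to 50 bases after it and on both strands, for short motifs of factors known to bind promoters of respiratory-chain genes. The NRF1 core GCATGCG occurred in 3 of 33 (9.09%, against 4.01% of 27025 genes), the ETS motif CCGGAAG in 4 (12.1% against 9.93%) and the YY1 motif AAGATGG in 7 (21.2% against 7.28%). At least 1 of them was in 14 of 33 members (42.4%), against 19.3% of all genes. For each motif, the stretch from 250 bases before to 30 bases after the start is shown for the member that co-varied most closely with the rest among those holding the motif there, because these members move together across libraries. They are chr17:56717512-56717791 (plus strand, Ndufa11), chr4:40279392-40279671 (minus strand, Ndufb6) and chr7:3617123-3617402 (plus strand, Ndufa3). Capitals mark the motif, read on either strand, and in Ndufa11 a pair of NRF1 matches on opposite strands overlaps.
Ndufa11: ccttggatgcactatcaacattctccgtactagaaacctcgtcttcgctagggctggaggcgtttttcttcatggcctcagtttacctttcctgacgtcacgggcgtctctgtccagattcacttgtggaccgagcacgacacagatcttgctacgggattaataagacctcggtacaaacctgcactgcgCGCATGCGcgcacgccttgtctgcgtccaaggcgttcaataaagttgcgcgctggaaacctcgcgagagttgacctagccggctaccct
Ndufb6: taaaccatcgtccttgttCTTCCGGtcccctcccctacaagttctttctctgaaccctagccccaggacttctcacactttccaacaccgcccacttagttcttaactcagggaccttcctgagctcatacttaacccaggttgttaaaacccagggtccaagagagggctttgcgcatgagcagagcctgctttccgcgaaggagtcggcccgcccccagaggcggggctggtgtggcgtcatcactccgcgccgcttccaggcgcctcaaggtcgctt
Ndufa3: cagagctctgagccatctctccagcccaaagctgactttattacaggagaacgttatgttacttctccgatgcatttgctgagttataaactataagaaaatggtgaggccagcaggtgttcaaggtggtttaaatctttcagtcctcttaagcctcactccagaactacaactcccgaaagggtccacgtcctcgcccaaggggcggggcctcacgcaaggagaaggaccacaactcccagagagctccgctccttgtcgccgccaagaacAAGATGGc
The marked letters begin at base -59 of Ndufa11, base -232 of Ndufb6 and base 23 of Ndufa3, counted from the start site. The ETS letters of Ndufb6 stand on the opposite strand. A match is a description of the letters and not of binding.

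The transcripts of complex I subunits were abundant in every library. Mean levels in TPM, which are corrected for transcript length, ran from 27.1 ± 4.51 (SD, n = 36) for Ndufa11 to 286 ± 35.3 for Ndufb9, a 10.5-fold span with a median of 110 TPM, the level of Ndufb7. The median member lay at the 93.4th percentile of the 17716 genes whose mean reached 1 TPM. Of the 37, 23 had a mean of 100 TPM or more and 5 had one below 60 TPM. After Ndufb9, an accessory subunit of the ND5 module, the order was Ndufa4 at 260 ± 67.2 TPM, Ndufb8 at 192 ± 31.4 TPM and Ndufc2 at 186 ± 21.4 TPM. Ndufa4 keeps its complex I name but is now counted as a subunit of complex IV. The lowest levels belonged to Ndufa11, Ndufb2 (37.7 ± 5.91 TPM), Ndufc1 (44.8 ± 7.14 TPM), Ndufs4 (50.7 ± 7.89 TPM) and Ndufab1 (53.6 ± 7.55 TPM), which encodes the mitochondrial acyl carrier protein. The order was not resolved gene by gene: in only 4 of the 36 neighbouring pairs was the gap between means larger than the larger SD, and in none did the higher member exceed the lower in all 36 libraries (0 of 36 pairs).

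The core subunits did not stand above the accessory ones. The median of their mean levels was 104 TPM, beside 110 TPM over all 37 members. Ndufv2 was at 118 ± 16.2 TPM, Ndufv1, which binds the flavin and NADH, at 101 ± 18.4 TPM, and Ndufs8, which carries iron-sulphur clusters, was the lowest of the core subunits at 63.9 ± 7.20 TPM. The mitochondrially encoded core subunits were far more abundant, from 2715 TPM for mt-Nd3 to 26218 TPM for mt-Nd1 on average.

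Several levels carry reads that may belong to other loci. Ndufb4 was at 60.2 ± 6.64 TPM and its processed pseudogene Ndufb4c at 87.8 ± 9.67 TPM, higher than Ndufb4 in all 36 libraries. The pair followed each other closely (r = 0.94 over 36 libraries with group means removed). Ndufab1-ps was at 35.99 ± 3.92 TPM, Ndufa11b at 21.9 ± 3.60 TPM and Ndufs6b at 26.9 ± 4.10 TPM, each below its parent in every library. Of the distinct 50-base stretches of a member's transcripts, over 10% also occur in another gene for 9 members, led by Ndufb6 (31.6%), Ndufa13 (28.5%) and Ndufs5 (21.7%), and none do for 14. The gene sharing most of them was at 2.98 TPM for Ndufb6 and 0.885 TPM for Ndufa13. It was at 59.6 TPM for Ndufs5 and 112 TPM for Ndufa12, of whose stretches 17.7% were shared. How the authors' counting treated such reads, and reads of overlapping genes on the opposite strand, is not stated, so the levels of these members are uncertain. Ndufb1 was not matched in the table, and Ndufb1-ps, the locus left outside the rule, was at 61.6 ± 9.46 TPM.

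The group means of the summed level of the 37 members lay close together, while libraries within a group spread widely. WT vehicle libraries ran from 4028 TPM through a median of 4177 TPM to 4717 TPM. Brd1+/- vehicle libraries ran from 3495 TPM through 4182 TPM to 5827 TPM. The means were 4248 ± 219.5 TPM (SD, n = 8) and 4320 ± 668 TPM (n = 9), and the WT vehicle range lay wholly inside the other. With imipramine the means were 4340 ± 467 TPM (WT IMN, n = 10) and 4270 ± 299.9 TPM (Brd1+/- IMN, n = 9), and these ranges overlapped as well. Members made up 0.350% to 0.583% of a library.

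**Figure D1:**
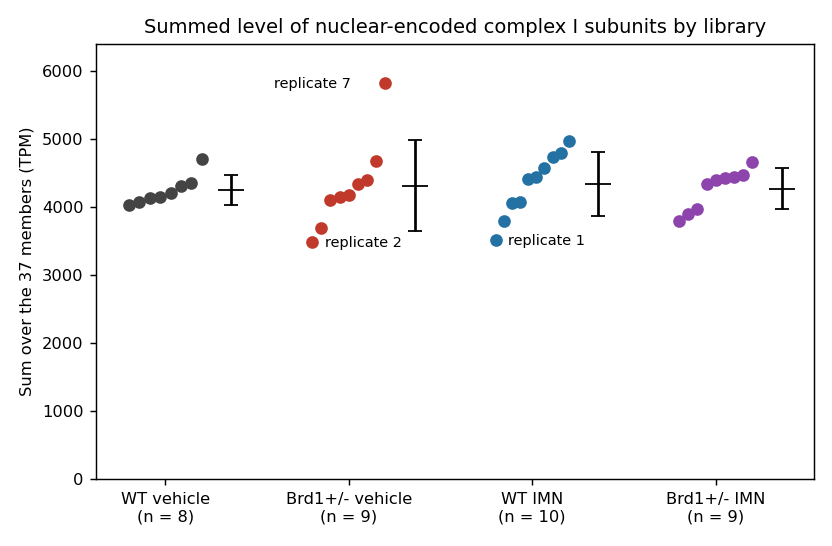
Sum over the 37 members in TPM (vertical axis, from 0) for each library (points, spread sideways by rank) in the 4 groups, with the group mean and SD beside them (bars). All groups overlap, and Brd1+/- vehicle replicate 7 stands highest at 5827 TPM while Brd1+/- vehicle replicate 2 (3495 TPM) and WT IMN replicate 1 (3518 TPM) stand lowest.

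Libraries standing apart are described first. The library Brd1+/- vehicle replicate 7 was the highest of the 36 for 20 of the 37 members, and its mean log2 level lay 0.40 above its group mean. Brd1+/- vehicle replicate 2 was the lowest for 15 members and WT IMN replicate 1 for 14. Mitochondrially encoded genes took 21.7% to 30.5% of a library, most in WT IMN replicate 1. Neuron markers were high in every library (mean log2 level 8.45 to 9.21). Oligodendrocyte markers ran from 3.68 to 7.88 (mean log2 level of 8 genes), and Brd1+/- vehicle replicate 6 stood apart in striatal markers (6.52, the others from 2.73 to 4.05) and choroid plexus markers (5.95, the others 0.84 or less). WT vehicle replicate 1 had the highest oligodendrocyte level of its group (7.495). The targeted gene followed the labels: Brd1 was at 26.4 ± 3.03 TPM in WT vehicle, 16.8 ± 2.72 TPM in Brd1+/- vehicle, 23.3 ± 3.43 TPM in WT IMN and 16.8 ± 2.102 TPM in Brd1+/- IMN. Over both treatments Brd1 was lower in Brd1+/- mice (log2 fold change -0.54 ± 0.067 SE, limma, adjusted p = 2.83e-05). Within a treatment Brd1 itself did not pass the correction, at -0.64 ± 0.095 with vehicle (unadjusted p = 2.42e-06, adjusted p = 0.0620) and -0.45 ± 0.091 with imipramine (unadjusted p = 6.87e-05, adjusted p = 0.882, limma). The study, which used edgeR, reported Brd1 as passing its correction between the vehicle groups in aCC, so the fit used here missed that difference.

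The effect of reduced Brd1 was first asked in vehicle-treated mice. No complex I subunit passed the test between Brd1+/- vehicle and WT vehicle: 0 of 37 members had an adjusted p below 0.05 (limma on log2(TPM + 0.5), Benjamini-Hochberg over 25572 genes), as did 0% of all genes tested. At an unadjusted p below 0.01 there were 0 of 37 members, against 0.7% of all genes, and below 0.05 also 0, against 3.75%. The members' median log2 fold change was 0.01 (all genes -0.02), and single members ran from -0.17 (Ndufv3) to 0.14 (Ndufs1). The 95% interval of the difference lay within a 1.25-fold change in either direction for 33 of the 37 and within 1.5-fold for all 37.

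Ndufv3, an accessory subunit of the N module's flavoprotein part, had the lowest p of the members in this comparison. Its levels ran from 118 through a median of 138 to 159 TPM in WT vehicle and from 101 through 121 to 149 TPM in Brd1+/- vehicle. The groups overlapped over most of their range. The log2 fold change was -0.17 ± 0.082 (SE, 95% interval -0.34 to 0.00, limma, unadjusted p = 0.054, adjusted p = 1.00).

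Ndufs1, the largest core subunit, which holds iron-sulphur clusters of the N module, came next. It ran from 82.5 through 94.1 to 121 TPM in WT vehicle and from 91.6 through 108 to 116 TPM in Brd1+/- vehicle. The highest value of all 17 libraries was WT vehicle replicate 1, while the other WT libraries reached 102 TPM. The log2 fold change was 0.14 ± 0.073 (SE, limma, unadjusted p = 0.064, adjusted p = 1.00). Without WT vehicle replicate 1 it was 0.19 ± 0.064, with an unadjusted p of 0.0074 and an adjusted p of 0.644 (limma). Ndufb5 (-0.12 ± 0.082), Ndufa9 (0.08 ± 0.060), which lies in the Q module, and Ndufa3 (0.10 ± 0.082) followed, each with an adjusted p of 1.00.

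In imipramine-treated mice the same genotype comparison gave no call either. At an adjusted p below 0.05 there were 0 of 37 members (limma, 0% of all genes), at an unadjusted p below 0.01 also 0 (0.614%), and below 0.05 0 (3.23%). The members' median log2 fold change was -0.02 (all genes 0.01), with a range from -0.10 (Ndufv1) to 0.09 (Ndufb10). Ndufb10, an accessory subunit of the ND4 module, ran from 126 through 163 to 191 TPM in WT IMN and from 154 through 165 to 188 TPM in Brd1+/- IMN. The Brd1+/- IMN values lay within the WT IMN range, and the log2 fold change was 0.09 ± 0.076 (SE, limma, adjusted p = 1.00). Ndufv3 was at -0.08 ± 0.079, Ndufv1 at -0.10 ± 0.115, Ndufa9 at -0.05 ± 0.063 and Ndufab1 at 0.07 ± 0.105 (log2 fold changes with SE). The interval lay within a 1.25-fold change for 35 of the 37 members.

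Pooled over both treatments, the genotype comparison had the narrowest intervals, and these lay within a 1.25-fold change for all 37. There were 0 members at an adjusted p below 0.05 (limma, 0.00391% of all genes, which is 1 gene, Brd1 itself) and 0 at an unadjusted p below 0.01 (0.731%). At an unadjusted p below 0.05 there was 1 of 37, Ndufv3, against 3.62% of all genes. Ndufv3 was at 138 ± 13.8 TPM in WT vehicle (n = 8), 123 ± 16.6 TPM in Brd1+/- vehicle (n = 9), 127 ± 15.1 TPM in WT IMN (n = 10) and 120 ± 13.7 TPM in Brd1+/- IMN (n = 9). Its log2 fold change was -0.12 ± 0.057 (SE, 95% interval -0.24 to -0.0045, limma, unadjusted p = 0.042, adjusted p = 0.999), which does not pass the correction. Ndufb10 (0.09 ± 0.059), Ndufs1 (0.08 ± 0.054), Ndufb5 (-0.08 ± 0.076) and Ndufa7 (-0.06 ± 0.066) followed, with adjusted p of 0.999 each.

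Imipramine was then compared with vehicle in each genotype. In WT mice there were 0 of 37 members at an adjusted p below 0.05 (limma, 0% of all genes), 0 at an unadjusted p below 0.01 (1.58%) and 0 below 0.05 (6.6%). In Brd1+/- mice the counts were also 0 at an adjusted p below 0.05 (0.00782%), 0 at an unadjusted p below 0.01 (1.22%) and 0 below 0.05 (5.52%). The members' median log2 fold change was 0.02 in WT and 0.00 in Brd1+/- mice (all genes -0.01 and 0.01).

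Ndufa4 was the member with the largest difference in WT mice. It ran from 200 through 237 to 287 TPM in WT vehicle and from 176 through 268 to 376 TPM in WT IMN. The vehicle range lay inside the imipramine range, and the log2 fold change was 0.20 ± 0.133 (SE, limma, unadjusted p = 0.144, adjusted p = 0.854). Ndufv3 was at -0.12 ± 0.076, Ndufs1 at 0.13 ± 0.085, Ndufa9 at 0.10 ± 0.069 and Ndufa12, an N-module subunit, at 0.09 ± 0.073, with adjusted p between 0.847 and 0.883 (limma). These comparisons use the same WT vehicle libraries as the genotype comparison above.

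In Brd1+/- mice Ndufa5, a Q-module subunit, had the largest difference. It ran from 76.2 through 121 to 208 TPM with vehicle and from 74.4 through 109 to 139 TPM with imipramine. The log2 fold change was -0.17 ± 0.163 (SE, limma, unadjusted p = 0.322, adjusted p = 0.978), and the ranges overlapped. Ndufs5 was at -0.09 ± 0.081, Ndufb2 at 0.10 ± 0.105, Ndufa3 at -0.09 ± 0.092 and Ndufa10 at -0.08 ± 0.094.

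Over both genotypes, imipramine gave 0 members at an adjusted p below 0.05 (limma, 0.274% of all genes), 0 at an unadjusted p below 0.01 (3.11%) and 0 below 0.05 (9.38%). The members' median was 0.01 and all genes' 0.00. Ndufa5 (-0.15 ± 0.102), Ndufa4 (0.14 ± 0.108), Ndufv3 (-0.07 ± 0.057), Ndufb8 (-0.10 ± 0.078) and Ndufv2 (0.08 ± 0.066) had the lowest p, with adjusted p of 0.699 to 0.774. The interval lay within a 1.25-fold change for 35 of the 37 members.

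Whether the response to imipramine differed by genotype was tested as an interaction. There were 0 members at an adjusted p below 0.05 (limma, 0% of all genes), 0 at an unadjusted p below 0.01 (0.547%) and 0 below 0.05 (3.2%). Ndufa9 (-0.14 ± 0.086), Ndufa3 (-0.14 ± 0.112), Ndufs1 (-0.12 ± 0.108), Ndufs4 (-0.12 ± 0.143) and Ndufv3 (0.09 ± 0.114) had the lowest p, each with an adjusted p of 1.00 (limma). The interval lay within a 1.25-fold change for 21 of the 37 and within 1.5-fold for all 37, so this contrast was the least precise of the 7.

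**Figure D2:**
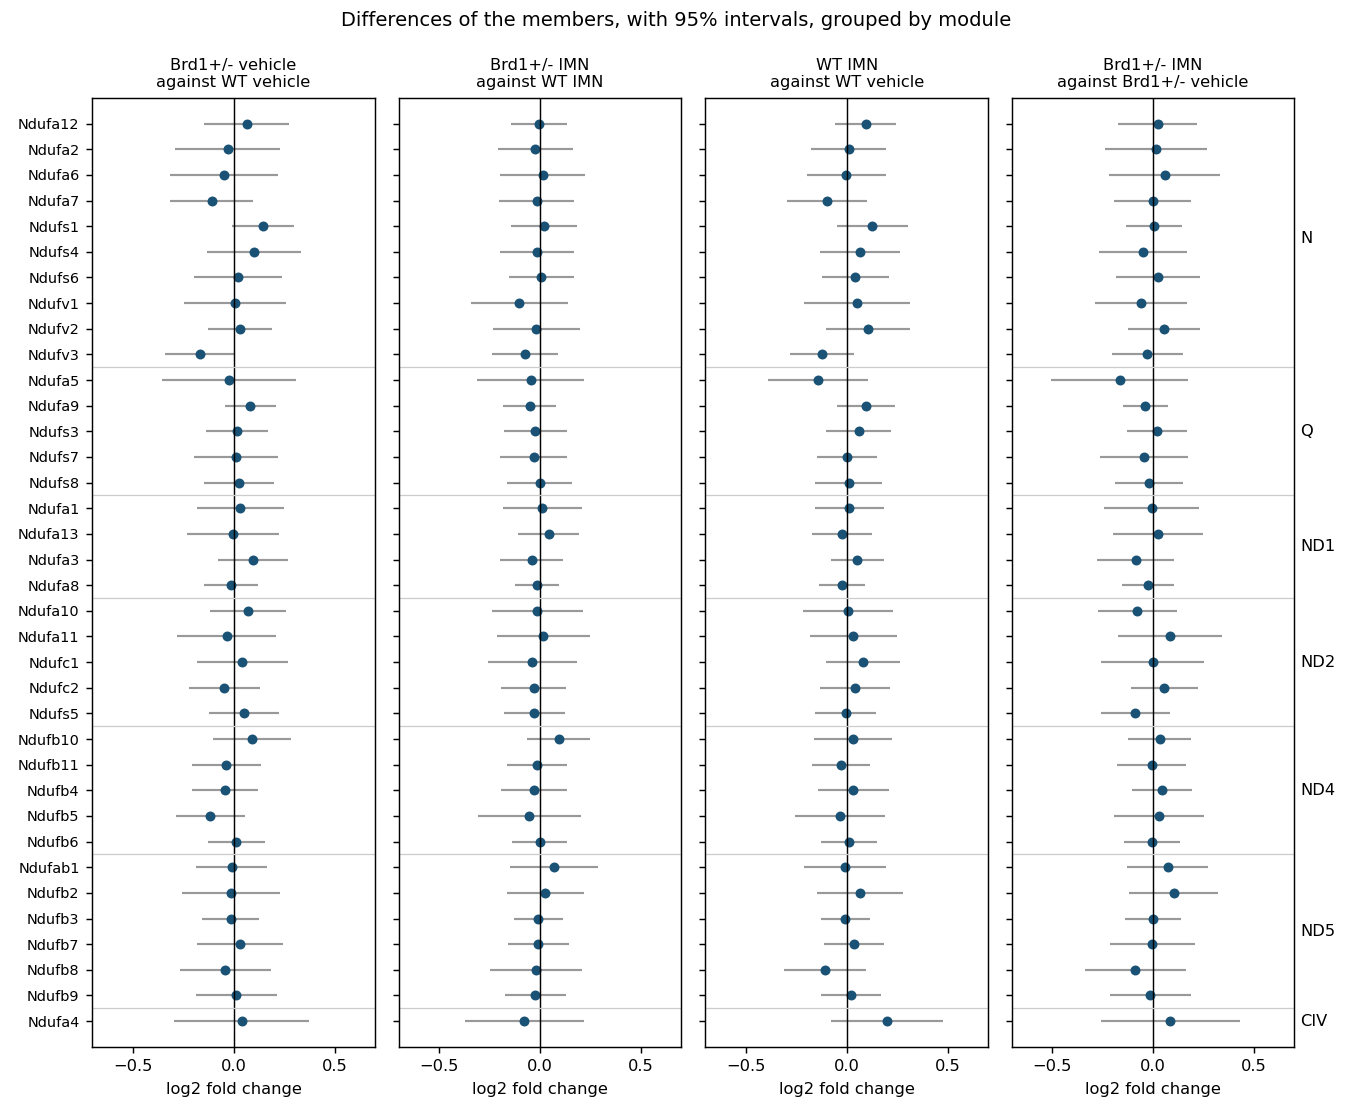
Log2 fold change on the log2(TPM + 0.5) scale (horizontal axis) with its 95% interval (bars) for 36 of the 37 members (rows, grouped by module at the right, CIV for Ndufa4) in the 4 comparisons between groups. All points lie between -0.17 and 0.20, and all intervals include 0.

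How many of the small differences lay above 0 depended on the scaling. Members above 0 numbered 21 of 37 for Brd1+/- vehicle against WT vehicle (56.8%, all genes 43.7%) and 10 for Brd1+/- IMN against WT IMN (27%, all genes 52%). They numbered 25 for WT IMN against WT vehicle (67.6%, all genes 45.5%) and 17 for Brd1+/- IMN against Brd1+/- vehicle (45.9%, all genes 52.5%). In the same order, the counts after quantile normalization were 27, 21, 33 and 28, and after rescaling without mitochondrially encoded genes they were 22, 14, 29 and 25. With median-ratio scaling they were 26, 9, 29 and 17. The majority lay above 0 under each of these scalings for Brd1+/- vehicle against WT vehicle and for WT IMN against WT vehicle, which share the WT vehicle libraries, and changed side in the other comparisons. The members rise and fall together from library to library, so their signs are not independent, and none of these differences passed the test.

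Other genes of the respiratory chain gave the same count of calls. At an adjusted p below 0.05, there were 0 in each of the 7 comparisons among the 15 assembly factors, the 4 genes of complex II, 9 of complex III, 10 of complex IV and 15 of ATP synthase, and the 7 mt-Nd genes (limma). At an unadjusted p below 0.01 there was 1, Ecsit, an assembly factor, in the interaction (log2 fold change -0.28, limma, unadjusted p = 0.0044), where 0.547% of all genes were below 0.01. Among 11 regulators of mitochondrial biogenesis, Pprc1, a coactivator related to PGC-1, was lower with imipramine over both genotypes (-0.30, limma, unadjusted p = 6.11e-04). It was also lower with imipramine than with vehicle within Brd1+/- mice (-0.32, limma, unadjusted p = 0.0039), whose libraries are part of the pooled comparison. Of all genes, 3.11% and 1.22% were below 0.01 in these comparisons, in that order. Neither Pprc1 nor Ecsit passed the correction.

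Although no member separated the groups, libraries differed, and the members moved together from library to library. With the group means removed, the median Pearson correlation of the 666 pairs of members over the 36 libraries was 0.52, and 99.5% of pairs lay above 0 and 53.5% above 0.5. Over all pairs of the 12523 genes averaging 5 TPM or more the median was 0.08, with 61.2% above 0 and 5.19% above 0.5. The first principal component took 53.2% of the members' variance and the second 7.48%. Ndufa1, an ND1-module subunit, and Ndufa11 had the closest pair (r = 0.91), followed by Ndufa6 with Ndufb9 (0.90) and Ndufa13 with Ndufa2 (0.90).

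Pairs within and across modules were correlated to a similar degree. The median r was 0.50 in the 101 pairs within a module and 0.53 in the 565 pairs across modules. Within modules it was highest in ND1 (0.71) and ND4 (0.66) and lowest in N (0.36) and Q (0.36). Pairs of core subunits had a median of 0.43 (21 pairs) and pairs of accessory subunits 0.55 (435 pairs). The 37 members are measured in the same libraries, so pairs are not independent and these values are a description.

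**Figure D3:**
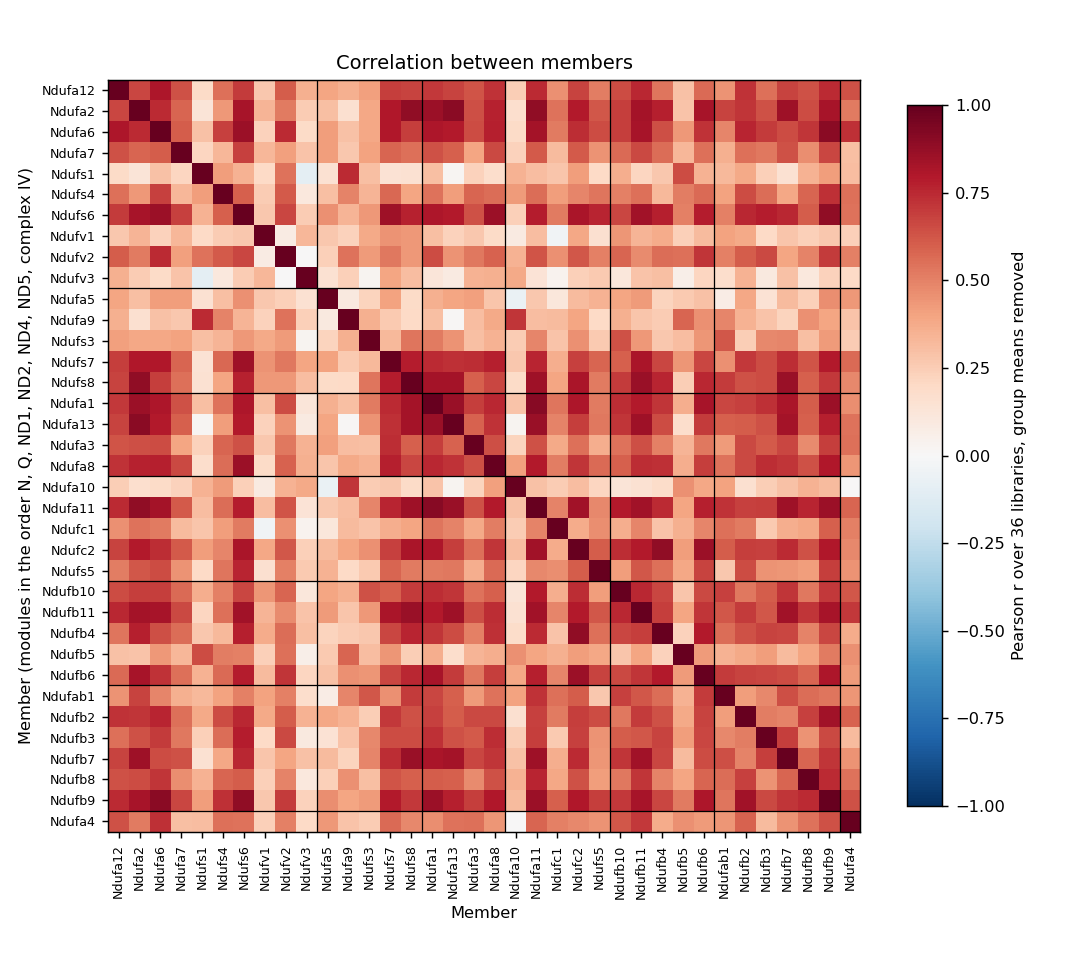
Pearson r (colour, from -1 in blue to 1 in red) between pairs of 36 of the 37 members over 36 libraries with group means removed, with members ordered by module (black lines). Nearly all pairs are positive (median 0.52 over all pairs of the 37), and pale rows run through Ndufs1, Ndufv1, Ndufv3 and Ndufa10.

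Members differed in how closely they followed the rest. Ndufb9 had the highest correlation with the mean of the other 36 members (r = 0.94, rho = 0.91), ahead of Ndufs6 (0.90), an N-module subunit, and Ndufa11 (0.90). At the other end stood Ndufv3 (0.28), Ndufa10 (0.34), Ndufv1 (0.38), Ndufa5 (0.40), Ndufs1 (0.41) and Ndufa9 (0.48). Ndufs1 and Ndufa9 were close to each other (r = 0.74), as were Ndufa9 and Ndufa10 (0.71), and the only pairs below 0 were Ndufs1 with Ndufv3 (-0.10), Ndufa10 with Ndufa5 (-0.06) and Ndufc1 with Ndufv1 (-0.04). The spread did not follow the same order: the SD of log2 levels within groups ran from 0.11 in Ndufa8 to 0.34 in Ndufa4, with 0.32 in Ndufa5 and 0.16 in Ndufs1.

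The members that followed the rest least were mostly those with long coding sequences. The 27 members with a longest coding sequence under 600 bases had a median r with the others of 0.79, with 0.40 (Ndufa5) as the lowest. The other 10 members, of 600 bases or more, had a median of 0.50 and reached 0.84. Among these, the 6 members of 900 bases or more had a median of 0.39 and ran from 0.28 to 0.82. A long coding sequence therefore did not always go with a low r. Across the 37 genes Spearman's rho between coding length and r was -0.31, and Pearson's r on the log2 of length was -0.52. Genes are not independent replicates, and the part of read coverage, RNA quality or library preparation in this was not tested.

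**Figure D4:**
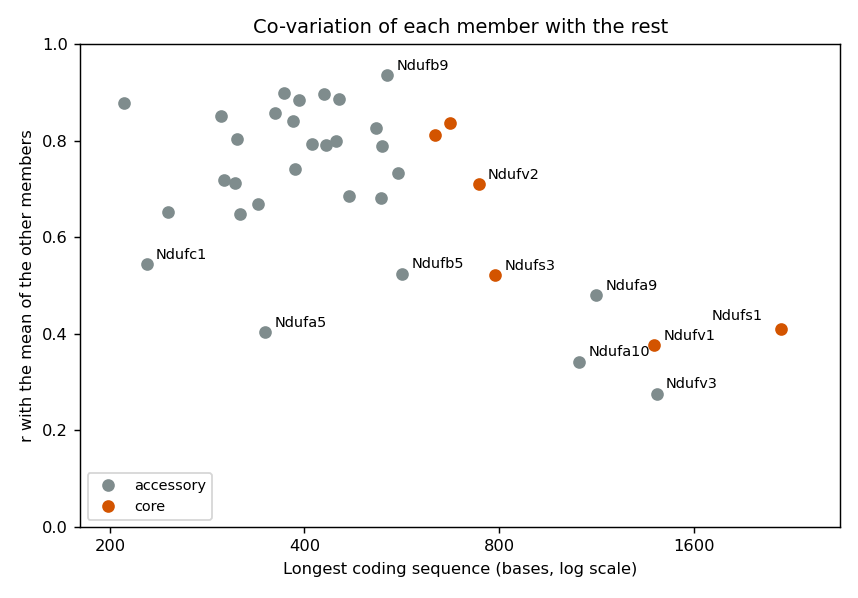
Pearson r of 36 of the 37 members, each with the mean of the other 36 members, over 36 libraries, group means removed (vertical axis), against its longest coding sequence in bases (horizontal axis, log scale), for core (orange) and accessory (grey) subunits. The 5 members drawn at 900 bases or more lie below 0.5.

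The tightness of the group differed between the 4 groups of mice. The median pair r was 0.26 in WT vehicle, 0.72 in Brd1+/- vehicle, 0.59 in WT IMN and 0.40 in Brd1+/- IMN. Single libraries moved these values. The median was 0.55 in Brd1+/- vehicle without replicate 7 and 0.44 in WT IMN without replicate 1. In WT vehicle without replicate 1 it was 0.12. Each of these fell, and the order of the groups stayed the same. No library was left out of Brd1+/- IMN for this. The groups also differed in how far their libraries spread, on which r depends. The SD of the members' mean log2 level between libraries was 0.073 in WT vehicle, 0.198 in Brd1+/- vehicle, 0.156 in WT IMN and 0.0997 in Brd1+/- IMN. This is the same order as the median r. The difference in r between groups, and the part of this spread in it, were not tested. In WT vehicle some members ran against the rest, such as Ndufa13 (r = -0.43) and Ndufs8 (-0.31), which followed the rest in Brd1+/- vehicle (0.97 and 0.96). With single WT vehicle libraries left out, the Ndufa13 value ran from -0.76 (without replicate 2) to -0.01 (without replicate 1). The long core subunit Ndufs1 did the opposite, with r = 0.83 in WT vehicle and -0.20 in Brd1+/- vehicle. With single Brd1+/- vehicle libraries left out, it ran from -0.57 (without replicate 1) to 0.22 (without replicate 7). In Brd1+/- vehicle replicate 7, the highest library for the summed level, Ndufs1 was at 95.4 TPM, below its group median of 108 TPM.

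The members varied together with other nuclear genes of the respiratory chain. Over 36 libraries with group means removed, the mean log2 level of the members followed that of complex III with r = 0.97 (rho = 0.97, and 0.96 without the 2 libraries farthest from the median), with 0.91 to 0.98 within the 4 groups. For complex IV r was 0.91 (rho = 0.84, 0.86 without the 2 farthest), but it was 0.45 in WT vehicle. For ATP synthase r was 0.84 (rho = 0.79, 0.79 without the 2 farthest), for complex II 0.84 (rho = 0.82) and for assembly factors 0.82 (rho = 0.83). For the 11 regulators of mitochondrial biogenesis r was 0.07 (rho = 0.06).

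The mitochondrially encoded subunits of the same complex went the other way. The mean of the 7 mt-Nd genes had r = -0.71 with the mean of the members (rho = -0.61, and -0.57 without the 2 farthest libraries). Within groups r was -0.50 in WT vehicle, -0.88 in Brd1+/- vehicle, -0.83 in WT IMN and 0.11 in Brd1+/- IMN, so the relation did not hold in each group. Because TPM values share a fixed total, a larger mitochondrial share lowers the nuclear genes by construction. With nuclear genes rescaled to a total without mitochondrially encoded genes, r was -0.56 (rho = -0.46, -0.38 without the 2 farthest). Within groups it was then -0.12 in WT vehicle, -0.83 in Brd1+/- vehicle, -0.69 in WT IMN and 0.26 in Brd1+/- IMN. With the share of all mitochondrially encoded genes, the rescaled members had r = -0.28 (-0.16 without the 2 farthest).

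**Figure D5:**
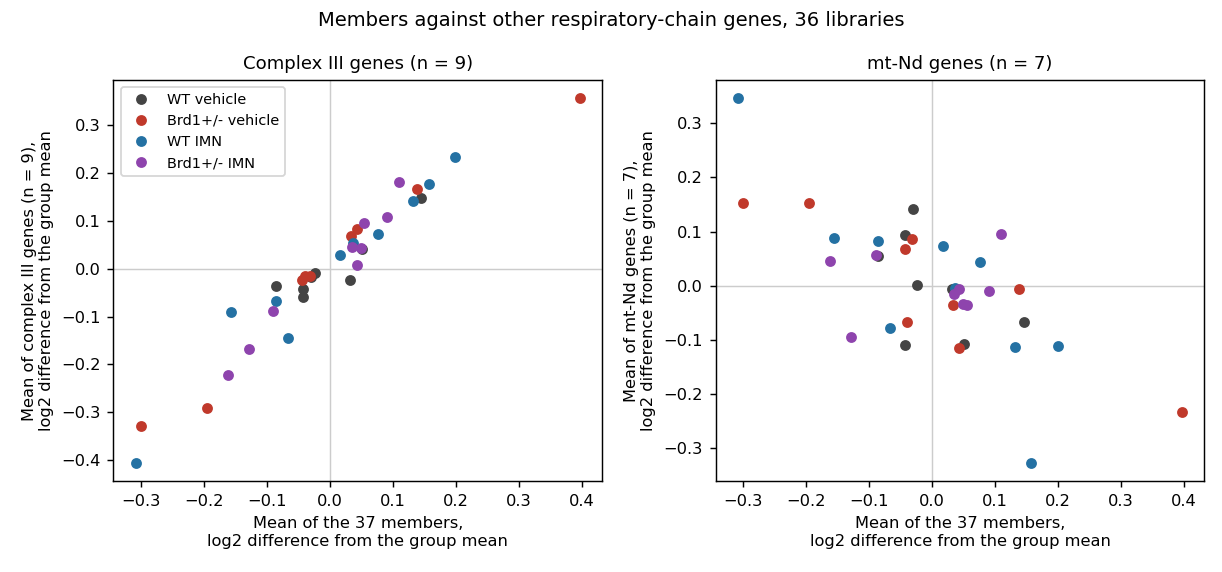
Mean log2 level of the 9 complex III genes (left) and the 7 mt-Nd genes (right) against the mean of the 37 members, each as the log2 difference from its group mean, with a point for each of 36 libraries coloured by group. Complex III follows the members closely (r = 0.97), while the mt-Nd genes run downwards (r = -0.71).

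Outside the members, the 10 genes of 5 TPM or more whose pattern was most like the mean of the members were Cox14 (r = 0.94), Hint1, Stmn3, Cox7b, Idh3b, Cyc1, Uqcr10, Glrx5, Gm4853 and 9530082P21Rik (0.90), over 36 libraries. Cox14 is an assembly factor of complex IV, Cox7b is a subunit of complex IV, Cyc1 and Uqcr10 are subunits of complex III, and Idh3b belongs to the citric acid cycle. Among the 100 most alike of 12486 genes were 16 of the 38 genes of complexes II to IV and ATP synthase, and 0 of 79 cytosolic ribosomal protein genes. The least alike were D030047H15Rik (-0.87), Flt1 (-0.82), a receptor of endothelial cells, Gm28439, Gm4076 and mt-Nd5 (-0.80), one of the core subunits encoded in mitochondrial DNA.

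Levels of cell type markers and of other abundant genes moved with the members as well. The mean of the members had r = 0.58 (rho = 0.66) with the 8 oligodendrocyte markers, -0.50 (rho = -0.57) with the 7 astrocyte markers, -0.64 (rho = -0.58) with the 6 endothelial markers, -0.36 (rho = -0.44) with the 7 microglia markers and 0.30 (rho = 0.33) with the 7 neuron markers. Within the groups the oligodendrocyte value was 0.49 to 0.79. The other marker lists varied more by group. The endothelial value ran from -0.87 (WT IMN) to -0.10 (Brd1+/- IMN) and the astrocyte value from -0.76 (WT IMN) to -0.30 (Brd1+/- vehicle). The microglia value ran from -0.57 (Brd1+/- IMN) to -0.09 (Brd1+/- vehicle) and the neuron value from 0.02 (Brd1+/- vehicle) to 0.64 (WT IMN). For ribosomal protein genes r was 0.57 (rho = 0.35, and 0.40 without the 2 farthest libraries), with -0.27 in WT vehicle and 0.92 in Brd1+/- vehicle. Their part in the co-variation of the members was not tested.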

How the data were processed

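RNA was sequenced by the authors as single-end BGISEQ-500 reads, aligned to GRCm38 with HISAT2 2.1.0 and quantified with StringTie 1.3.4 against an Ensembl annotation (versions per the submitters' processing notes). The deposited values are TPM per gene and library, with no further scaling. The study's methods give only a minimum number of reads per sample, and TPM carries no read totals, so the depth of each library is unknown. Libraries listed 24685 to 25517 genes above 0. Columns were matched to samples by label (0 unmatched), and groups were taken from the labels. Members and lists were chosen with earlier results of these data known. Symbols were found for 52489 of 52636 identifiers (147 had none).

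Values were analysed as log2(TPM + 0.5), which understates changes of low genes. The 25572 genes that reached 0.1 TPM in 8 or more libraries were fitted in limma 3.58.1 (R, moderated with a mean-variance trend), with only the groups compared in a pairwise fit, and p-values were two-sided and adjusted by Benjamini-Hochberg over all genes. Thresholds were an adjusted p of 0.05 and unadjusted p of 0.01 and 0.05. The fit was tested on simulated data. In the 4 pairwise comparisons it recovered 84% to 94% of 2-fold and 54% to 69% of 1.5-fold changes, with 3 to 11 false calls. In each simulation 100 genes were changed by each fold, whereas the real pairwise fits called 0 to 2 genes at an adjusted p below 0.05. The Benjamini-Hochberg cut-off is stricter when few genes differ. The simulated shares therefore do not give the chance of detecting such changes in the real comparisons. Each mouse gave 1 library. In each comparison the 5 members with the lowest p were named, with the extremes of level, spread and correlation, and the 10 most and 5 least similar other genes. Correlations are Pearson's over 36 libraries after removing group means, given without tests. Coding lengths are from GENCODE M21. Same-numbered libraries of different groups did not deviate together (mean r from -0.067 to 0.053), so replicate numbers were not used as pairs. Alternatives were other pseudocounts, filters and scalings, all 36 libraries in a fit, a replicate block and leaving out each library. 2 were added after the data had been seen: leaving out 4 libraries that stood apart, and the mean of the members as a covariate. Values of 1 member are not reported here singly. It stays in the counts, medians and means over members.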

Additional observations from a re-analysis of the deposited data

Results flagged for a closer look

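The values of 36 members, and the mean over members, were examined in each of the 4 groups for a library far from the others (Dixon's test at the 95% level, 148 tests). There were 9 such values among the 148 tests, a share near the 1 in 20 that chance gives.

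In WT vehicle, replicate 1 was far above the other 7 libraries for Ndufb2 (46.8 TPM, the others 32.4 to 37.8), Ndufb9 (327.6 TPM, the others 261 to 289) and Ndufs4 (71.7 TPM, the others 37.9 to 49.8). This library also had the highest oligodendrocyte marker level of its group (7.495 on the log2 scale). Replicate 2 of the same group was far below the others for Ndufab1 (40.2 TPM, the others 51.1 to 59.9) and Ndufb10 (115 TPM, the others 145 to 176). Replicate 3 was far above for Ndufa8 (174 TPM, the others 152 to 158).

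In Brd1+/- vehicle, replicate 7 was far above the others for Ndufa4 (509 TPM, the others 168 to 285). WT IMN replicate 1 was far below for Ndufs6 (78.4 TPM, the others 103 to 135), and Brd1+/- IMN replicate 8 was far below for Ndufb11 (103 TPM, the others 118 to 132). The mean over the members gave no such value in any of the 4 groups. The cause was not tested.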

How the results depend on the processing

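The count of members at an adjusted p below 0.05 was 0 in each of the 7 comparisons under every alternative run (limma). The median of the members moved by less than the spread between libraries in each, but that spread (SD 0.142 on the log2 scale) exceeded every median. The sign of the median was not stable. For Brd1+/- vehicle against WT vehicle it ran from -0.047 to 0.036 over settings, and from -0.048 to 0.055 with single libraries left out. Counts at an unadjusted p below 0.01 ranged from 0 to 1 when single libraries were left out of Brd1+/- vehicle against WT vehicle: the 1 was Ndufs1, without WT vehicle replicate 1. With 4 libraries that stood apart left out together (chosen after seeing the data), this count was 1 in that comparison, 1 in WT IMN against WT vehicle and 1 in the interaction, each of them Ndufs1 (log2 fold changes 0.22, 0.23 and -0.25, adjusted p = 0.408, 0.144 and 0.809), and 1 for imipramine over both genotypes (Ndufa12, 0.14, adjusted p = 0.169). These 3 comparisons for Ndufs1 share the WT vehicle libraries, and the cause was not tested. With a replicate block the count was 1 for genotype over both treatments (Ndufv3, log2 fold change -0.15 ± 0.047 SE, unadjusted p = 0.0033, adjusted p = 1.00); the numbers do not pair the libraries, and the replicate block changed no other count. With the mean of the members as a covariate the count stayed at 0 in all 7. Named members kept their direction in all 1270 values. The median pair correlation ranged from 0.47 to 0.55 over scalings and rank correlation, and from 0.47 to 0.54 with single libraries left out. TPM gives no read depth, so precision rests on the number of libraries.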

Other observations

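The mean of the members was also held as a covariate (added after seeing the data). This adjusts each subunit for the mean of all 37 members in its library, the subunit itself included. The subunit's own part in that mean can lower its SE by construction. The median SE of the members for genotype over both treatments was then 0.040 in place of 0.063 on the log2 scale. In that fit 2 of 37 members had an unadjusted p below 0.05 for genotype over both treatments, against 4.18% of all genes, and 0 had one below 0.01. Ndufb10 was 0.10 ± 0.037 higher (log2, SE, limma, unadjusted p = 0.015, adjusted p = 0.999) and Ndufv3 was -0.12 ± 0.055 (unadjusted p = 0.038, adjusted p = 0.999) in Brd1+/- mice. Neither passed the correction.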
